A study of Mus musculus with 2 samples.

Results

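The microRNA genes Mir124a-1, Mir124a-2, Mir124a-3, Mir9-1, Mir9-2 and Mir9-3 were selected by symbol from the annotation used for the deposited counts, and are 6 of the 2202 microRNA genes in each file. Small RNA sequencing was carried out on left cerebral cortex that the labels give as B6CASTF1/J, male, at an age of 14 days, a first-generation cross of C57BL/6 and CAST/Ei parents. There were 2 replicate libraries of this 1 group, made from total RNA with a size class of short RNAs, and no treatment or other genotype was compared. The donor label is shared by the libraries while their tissue records differ; the sample descriptions mention several males, and whether animals were pooled or separate is not stated, so an SD here measures the spread between these libraries and may be technical.

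MicroRNAs are cut from hairpin precursors, and the mature strand guides silencing complexes to messenger RNAs through its seed, the bases near its 5′ end. The microRNA miR-124 is a hallmark of neurons, where it lowers transcripts of other cell types, among them that of the splicing repressor Ptbp1. The microRNA miR-9 is known from neural progenitors and neurons: its 5′ arm, miR-9-5p, targets the neuronal gene repressor Rest, and its 3′ arm, miR-9-3p, targets Rcor1, a partner of Rest. Together miR-124 and miR-9-3p are known for lowering Actl6a, a chromatin remodelling subunit of progenitors. Each of the families has 3 genomic copies in the mouse, all of which were present in the files.

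The Mir9 sequences are shown because they decide which reads can be placed at a single copy. They are from RefSeq (GRCm38.p6, the assembly also called mm10), with the seed, bases 2 to 8, in capitals.
miR-9-5p: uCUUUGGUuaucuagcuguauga
miR-9-3p: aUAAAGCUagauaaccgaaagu
Each seed was found in the mature forms of 3 genes of that table, the Mir9 copies themselves, out of 1738 mature forms listed. The hairpins follow, with both mature forms in capitals.
Mir9-1: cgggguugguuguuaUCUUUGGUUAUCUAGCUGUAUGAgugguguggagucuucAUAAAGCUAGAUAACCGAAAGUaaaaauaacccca
Mir9-2: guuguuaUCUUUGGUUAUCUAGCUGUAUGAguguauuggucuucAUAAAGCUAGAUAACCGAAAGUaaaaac
Mir9-3: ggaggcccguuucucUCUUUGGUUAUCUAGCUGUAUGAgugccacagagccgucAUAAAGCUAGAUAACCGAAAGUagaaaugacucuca
Mir9-1 lies at chr3:88215598-88215686 in an intron of the long non-coding gene Gm3764. Mir9-2 lies at chr13:83738814-83738885 in an exon of C130071C03Rik, a long non-coding gene, and Mir9-3 at chr7:79505264-79505353 in an intron of Mir9-3hg. All are on the plus strand, and the capital letters are the same in each hairpin, so a read of exactly the mature form matches all 3 copies.

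The Mir124a copies are also on the plus strand. Mir124a-1 lies at chr14:64590657-64590741 in an exon of Mir124a-1hg. Mir124a-2 lies at chr3:17795662-17795770 within Mir124-2hg and overlaps an exon of it in part. Mir124a-3 lies at chr2:180894040-180894107, and overlaps an exon of the non-coding gene Gm27032 in part. The longest stretch that any pair of Mir124a hairpins shared was 32 bases, for Mir124a-1 with Mir124a-2 and for Mir124a-2 with Mir124a-3. Among the Mir9 hairpins it was 33 bases for Mir9-1 with Mir9-2, and 26 bases for Mir9-3 with either of the others.

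The libraries held 11224232 reads in replicate 1 and 8758378 in replicate 2, of which 4111167 and 3189903 were counted in a microRNA gene on the strand of that gene. Reads that matched several genomic positions stand in a row of their own outside the genes, with 4388585 reads in replicate 1 and 3624634 in replicate 2, more than all genes together. The tissue label was set against lists of microRNAs known from particular cell types. All 19 genes of a neuron-associated list reached at least 10 counts in each library, against 18.4% of all 2202 genes. They held 15.9% and 14.6% of the counts, and Mir139 alone had 417530 and 265043 counts. Of the lists of other cell types, 3 of 3 oligodendrocyte genes were detected (0.286% and 0.253% of the counts), 1 of 1 endothelial (1.04% and 1.32%), 2 of 2 of smooth muscle (0.507% and 0.522%), 4 of 4 of leukocytes and microglia (0.184% and 0.197%) and 1 of 2 of choroid plexus (0.0584% and 0.0728%). Of 5 muscle genes Mir206 had 85 and 76 counts, and the Mir1a and Mir133a genes, which also share stretches between copies, were at 0 in both libraries. Mir122 of liver was also detected, with 213 and 153 counts, and held 0.00518% and 0.0048%. The part of these other cell types in the values of the Mir124a and Mir9 copies was not tested.

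Few reads were counted at any Mir124a copy. Mir124a-1 had 9 counts in replicate 1 (exact Poisson 95% interval 4.12 to 17.1) and 19 in replicate 2 (11.4 to 29.7). Mir124a-2 had 11 (5.49 to 19.7) and 3 (0.619 to 8.77), and Mir124a-3 had 2 (0.242 to 7.22) and 8 (3.45 to 15.8). These intervals cover counting error only, since no molecular identifiers tell copied reads from separate molecules. The order of the copies was not stable: Mir124a-2 was the highest in replicate 1 and the lowest in replicate 2, and the intervals of neighbouring copies overlapped in both libraries. Mir124a-2 held 50% of the family's 22 counts in replicate 1 (exact Clopper-Pearson 95% interval 28.2 to 71.8%) and 10% of its 30 counts in replicate 2 (2.11 to 26.5%). As CPM, a count divided by the library's total over genes and scaled up alike for both libraries, the family had 5.35 in replicate 1 against 9.4 in replicate 2, with a mean of 7.38 ± 2.87 CPM (SD, n = 2).

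The Mir9 copies had a clear order that was the same in each library. Mir9-3 had 355 counts in replicate 1 (exact Poisson 95% interval 319 to 394) and 367 in replicate 2 (330.4 to 407). Mir9-1 had 44 (32.0 to 59.1) and 84 (67.0 to 104), and Mir9-2 had 1 (0.0253 to 5.57) and 9 (4.12 to 17.1). The intervals of the copies did not overlap in either library. Mir9-3 therefore held 88.8% of the 400 Mir9 counts of replicate 1 (exact Clopper-Pearson 95% interval 85.2 to 91.7%) and 79.8% of the 460 of replicate 2 (75.8 to 83.4%). Mean levels were 100.7 ± 20.3 CPM for Mir9-3, 18.5 ± 11.1 for Mir9-1 and 1.53 ± 1.82 for Mir9-2 (SD, n = 2 each), and the family stood at 121 ± 33.2 CPM. By mean CPM Mir9-3 ranked 214 of the 2202 genes, Mir9-1 291, Mir124a-1 391, Mir124a-2 491, Mir9-2 505 and Mir124a-3 507. The median of the 6 copies was 10 counts in replicate 1 and 14 in replicate 2, against 0 in both over all genes.

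**Figure D1:**
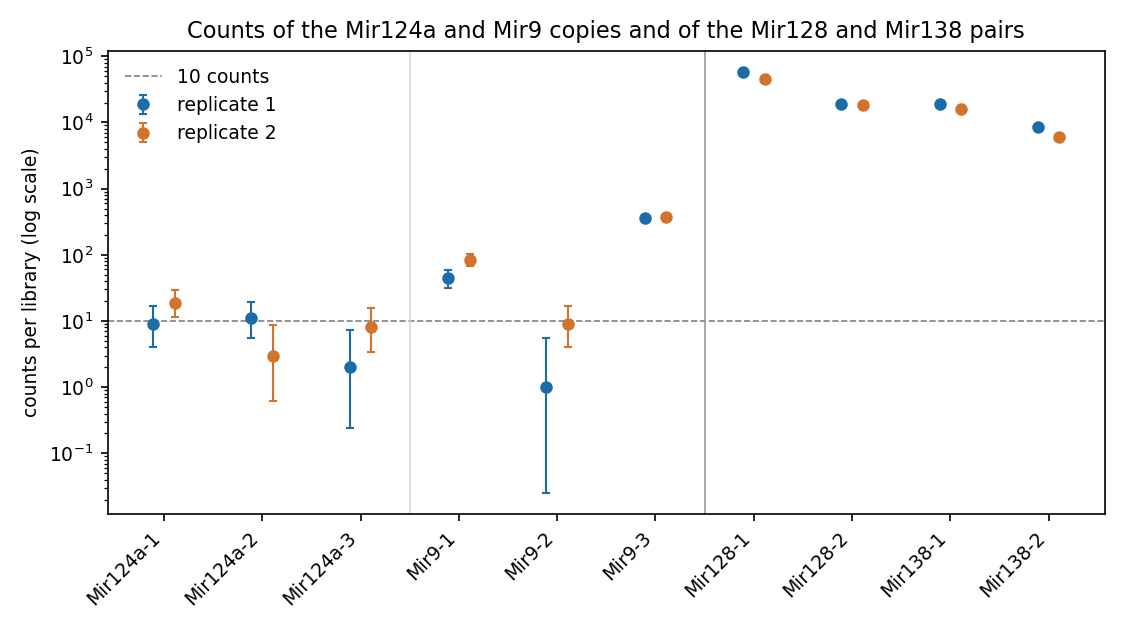
Counts per library on a log scale for the Mir124a and Mir9 copies and, right of the dark line, the Mir128 and Mir138 pairs. Points are single libraries, bars are exact Poisson 95% intervals, and the dashed line marks 10 counts. Mir9-3 sits at 355 and 367 counts, the Mir124a copies at 2 to 19.

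With at least 10 counts in each library as the rule for a detected gene, 2 of the 6 copies were detected, Mir9-1 and Mir9-3, against 18.4% of all 2202 genes. Mir124a-1 missed the rule by 1 count in replicate 1, and Mir9-2 had 9 counts in its better library. These rows hold no limit on abundance, because reads that matched several positions are outside them. For each count at a Mir124a copy there were 199481 such reads in replicate 1 and 120821 in replicate 2. For each Mir9 count there were 10971.5 and 7880. How many of those reads came from these microRNAs was not analysed here, so neither a low nor a high level of miR-124 or miR-9 in this cortex follows from the counts.

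The libraries differed at both detected copies. Mir9-1 was higher in replicate 2 by a log2 ratio of 1.30 (95% interval of counting error 0.76 to 1.86; adjusted p = 1.72e-06, exact binomial test with Benjamini-Hochberg adjustment over 406 detected genes). Mir9-3 was higher in replicate 2 by 0.41 (0.20 to 0.63; adjusted p = 0.00028, same exact test). The test allows for read sampling only, and 58.1% of the detected genes passed it, 23.4% higher and 34.7% lower in replicate 2, so a difference between these libraries was common. With TMM library sizes 111 genes were higher and 110 lower in replicate 2, and with DESeq2 size factors 112 and 108, against 95 and 141 here. Among the copies below the rule, Mir124a-1 (log2 ratio 1.44), Mir124a-3 (2.37) and Mir9-2 (3.54) had larger values in replicate 2 and Mir124a-2 (-1.51) a smaller one, each from at most 19 counts. They were outside the test with a minimum of 10 counts. With a minimum of 1 count, where 251 of 642 genes (39.1%) passed, the same exact binomial test gave an adjusted p of 0.0339 for Mir124a-1, 0.225 for Mir124a-2, 0.0644 for Mir124a-3 and 0.0192 for Mir9-2. No test over samples was run: with 2 libraries an exact sign-flip test (two-sided) goes no lower than p = 0.5.

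The stretches that set the Mir9 copies apart lie outside their mature forms. Every window of a hairpin was searched by exact match on both strands through all annotated transcripts, and called single-position when it occurred at 1 place. Reads that begin at the 5′ end of a mature Mir9 form needed the bases in capitals before they were single-position.
Mir9-1 from miR-9-5p: ucuuugguuaucuagcuguaugaGUGG
Mir9-2 from miR-9-5p: ucuuugguuaucuagcuguaugaGUGU
Mir9-3 from miR-9-5p: ucuuugguuaucuagcuguaugaGUGC
Mir9-1 from miR-9-3p: auaaagcuagauaaccgaaaguAAAAAU
Mir9-2 from miR-9-3p: auaaagcuagauaaccgaaaguAAAAAC
Mir9-3 from miR-9-3p: auaaagcuagauaaccgaaaguAG
From the start of miR-9-5p the shortest such read was 27 bases at each copy, 4 beyond the mature form. From the start of miR-9-3p it was 24 bases at Mir9-3, 2 beyond the mature form, but 28 bases at Mir9-1 and Mir9-2, 6 beyond it. A read that begins 1 base upstream of miR-9-5p was single-position from 18 bases at Mir9-3, the shortest length searched, and from 28 bases at the other copies. Mir9-3, the copy with the most counts, was also the one that needed the fewest extra bases from the start of miR-9-3p; the part of this in the order of the counts was not tested. Mir9-1 and Mir9-2 needed equal numbers of extra bases from the mature starts, and had 44 against 1 counts in replicate 1 and 84 against 9 in replicate 2.

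**Figure D2:**
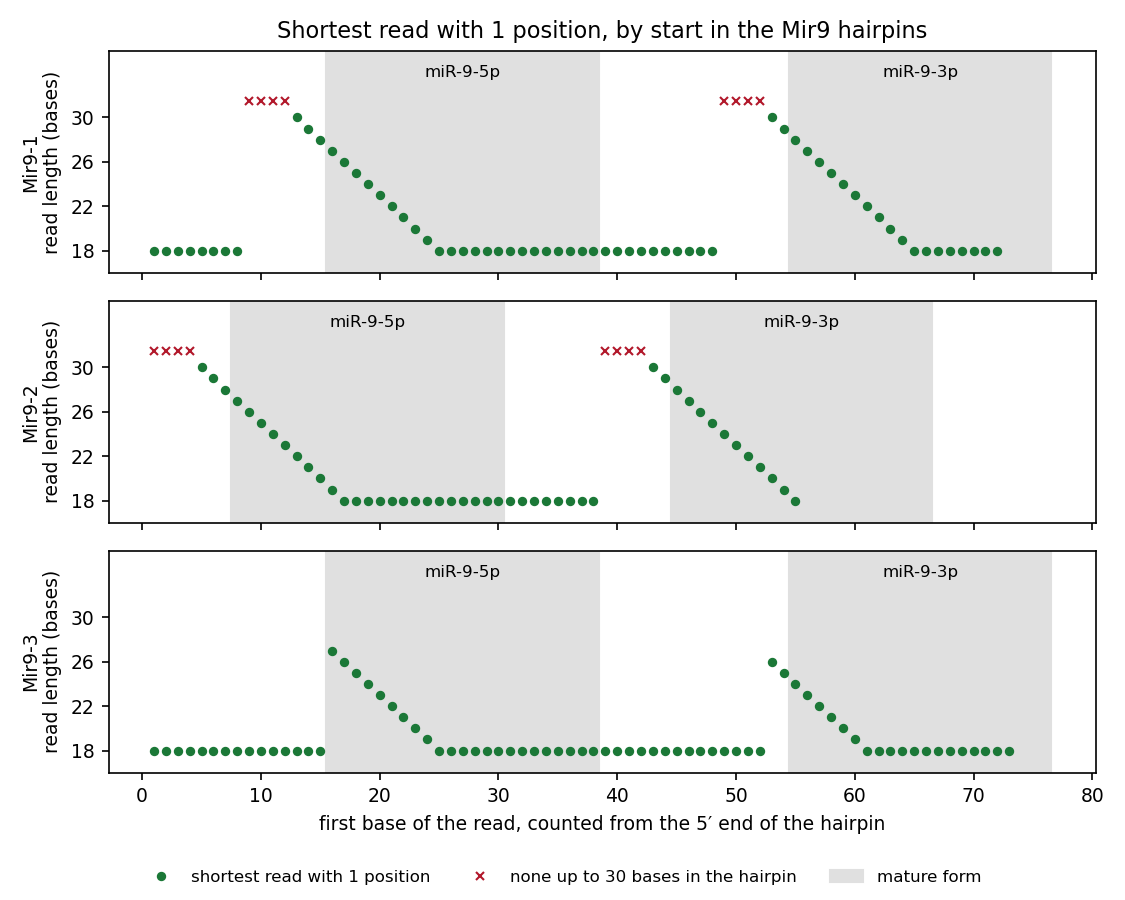
Shortest read with 1 position in the annotated transcripts (vertical axis, bases) for each first base of a read in the Mir9 hairpins (horizontal axis, counted from the 5′ end). Grey bands are the mature forms, and crosses mark starts with no such read up to 30 bases. Crosses appear upstream of both mature forms in Mir9-1 and Mir9-2, and none appear in Mir9-3.

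Over whole hairpins Mir9-3 had the highest single-position share of the Mir9 copies and Mir9-2 the lowest. Of 22-base windows, a usual length of a mature microRNA, 87.0% were single-position in Mir9-3, 64.7% in Mir9-1 and 52.9% in Mir9-2. In the Mir124a hairpins the shares were 67.2% for Mir124a-1, 70.5% for Mir124a-2 and 57.4% for Mir124a-3, against a median of 97.3% over all 2202 genes. Mir124a-2, with the highest share of its family, had the most Mir124a counts in replicate 1 and the fewest in replicate 2. Mir124a-1 and Mir124a-2 had higher shares than Mir9-1 but fewer counts in each library. Each Mir124a hairpin had 15 windows present at 3 positions, in 2 stretches that start at bases 14 to 18 and 46 to 55 of Mir124a-1, 25 to 29 and 55 to 64 of Mir124a-2, and 6 to 10 and 37 to 46 of Mir124a-3. Each Mir9 hairpin had 9 such windows, also in 2 stretches. Windows at 3 or more positions were common, and 969 of the 2202 genes (44.0%) had at least 1. A lower single-position share than that of Mir9-2, the lowest of the copies, was found in 721 genes. Read length mattered: at 28 bases Mir9-3 reached 100%, Mir9-1 80.6% and Mir9-2 73.3%, and the Mir124a copies stood at 80.5 to 84.5%. At 30 bases the Mir124a copies stood at 89.7 to 91.2%, Mir9-1 at 86.7% and Mir9-2 at 81.4%. Starts at bases 37 to 51 of Mir124a-3 had no single-position read up to 30 bases inside the hairpin. Reads from base 48 of Mir124a-1 and base 58 of Mir124a-2 onward did have one. The hairpin of Mir124a-3 ends soon after, so its windows fell from 51 at 18 bases to 39 at 30 bases. Windows elsewhere in the genome were not searched, so the window shares are upper bounds, and the lengths of the counted reads were not analysed here.

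**Figure D3:**
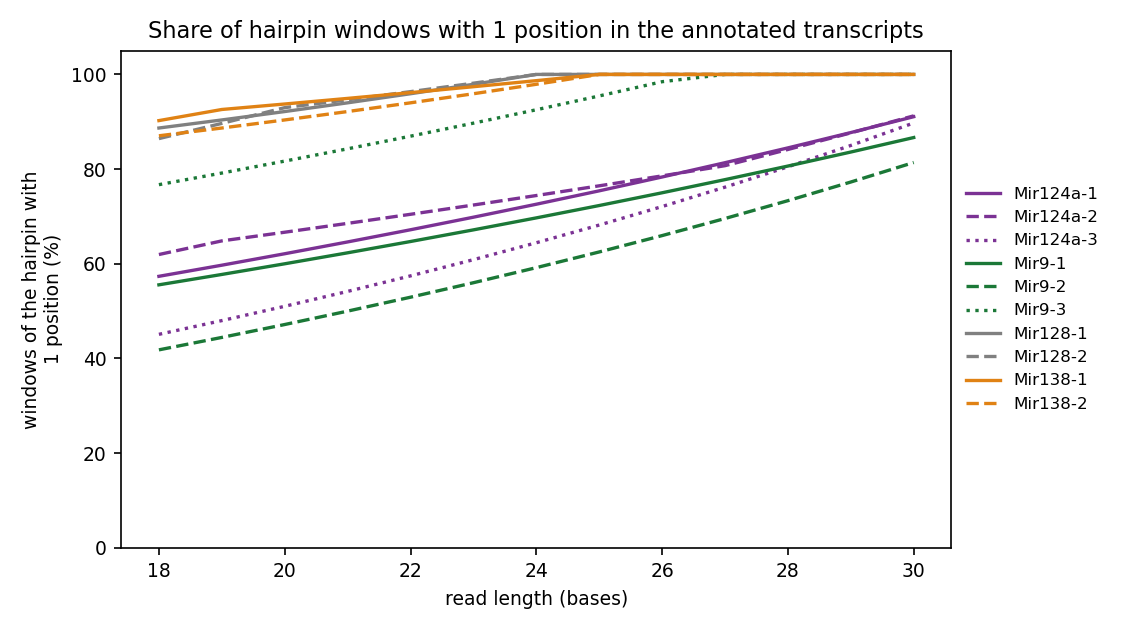
Share of windows of each hairpin with 1 position in the annotated transcripts (vertical axis, percent) against the window length (horizontal axis, bases). Lines are the 6 Mir124a and Mir9 copies and the 4 genes of the Mir128 and Mir138 pairs. Mir9-3 and the pairs reach 100% by 28 bases, while the other copies stay below it at 30 bases.

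The pairs most like these families, neuronal microRNAs with a shared mature form but 2 genomic copies, had far more counts. Mir128-1, in an intron of R3hdm1, was counted 57746 times in replicate 1 and 45484 in replicate 2, and Mir128-2, in an intron of Arpp21, had 19165 and 18206. Mir138-1 had 19078 and 15864, and Mir138-2, known with it for its part in dendritic spines, had 8385 and 5957. The Mir9 copies together had 400 and 460 counts, against 76911 and 63690 for the Mir128 pair, which was 192 and 138 times as many. The Mir124a copies had 22 and 30 counts, against 27463 and 21821 for the Mir138 pair, 1248 and 727 times as many. Both libraries thus gave the same order, Mir124a below Mir9, Mir138 and Mir128, and these differences were not tested over samples. Counts were not scaled by hairpin length.

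The sequences of the pairs part sooner. The shortest single-position reads from the start of miR-128-3p and miR-138-5p, the forms that each pair shares, are printed with the bases beyond the mature form in capitals.
Mir128-1 from miR-128-3p: ucacagugaaccggucucuuuU
Mir128-2 from miR-128-3p: ucacagugaaccggucucuuuC
Mir138-1 from miR-138-5p: agcugguguugugaaucaggccgU
Mir138-2 from miR-138-5p: agcugguguugugaaucaggccgA
A single base beyond the mature form set the copies of each pair apart, against 2 to 6 bases for Mir9. The other arm of each Mir128 and Mir138 gene was a mature form that no other gene in the table carried, whereas both arms of Mir9 were shared by all 3 copies. The pairs had 94.0 to 96.4% single-position 22-base windows. The part of these sequence differences in the counts of the families was not tested.

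**Figure D4:**
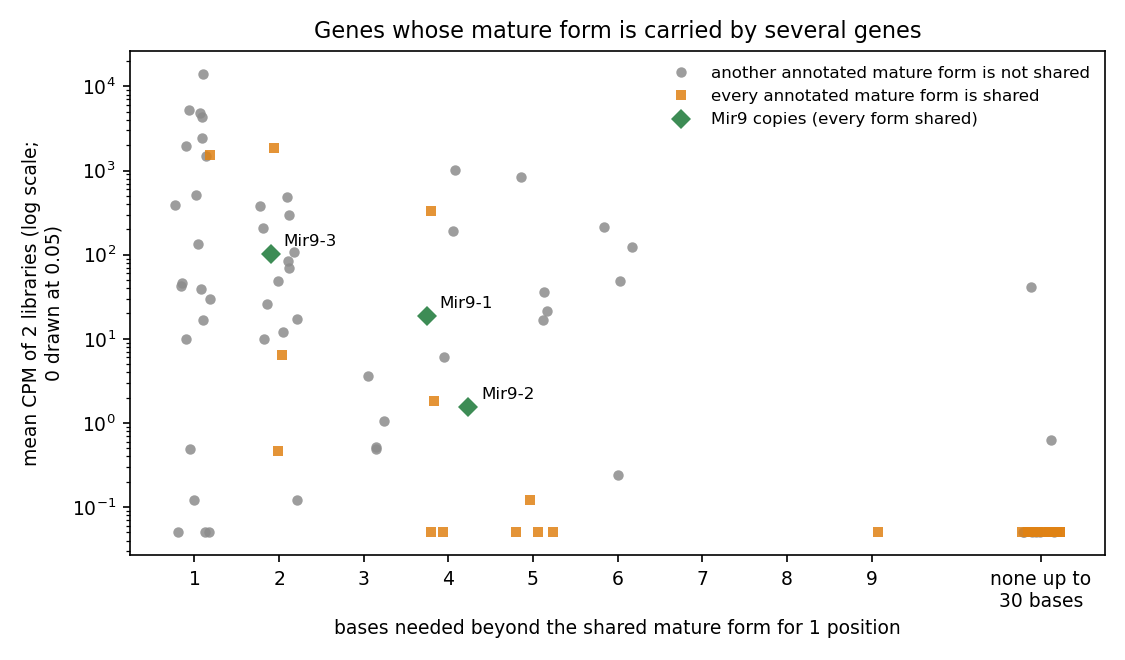
Mean CPM of the 2 libraries (vertical axis, log scale, 0 drawn at the bottom) against the fewest bases that a read needs beyond a shared mature form to have 1 position, for the 94 genes of the reference table whose mature form is carried by several genes. Points are genes, spread sideways for clarity. The Mir124a copies had no entry in that table and are not drawn. The Mir9 copies stand at 2 bases (Mir9-3) and 4 bases (Mir9-1 and Mir9-2), and most genes with no such read up to 30 bases are at 0.

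Across the 94 genes of the reference table whose mature form is carried by several genes, 44 were detected (46.8%), against 18.4% of all 2202 genes. The median of their mean levels was 1.69 CPM. Of the 39 genes that needed 1 or 2 extra bases, 31 were detected (79.5%), with a median of 69.9 CPM. Of the 26 that needed 3 or more, 12 were detected (46.2%), with a median of 2.71 CPM. Another 29 had no single-position read up to 30 bases from the start of a shared form, and 1 of them was detected (3.45%), Mir24-1. Only 1 of the 2 mature forms of Mir24-1 in the table is shared, so reads of its other form are outside this class rule. Mir9-3 at 100.7 CPM and Mir9-1 at 18.5 CPM stood above the medians of their classes, and Mir9-2 at 1.53 CPM below. The extra-base classes mix genes with and without another mature form in the table that is not shared. Of the 57 genes with such a form 39 were detected (68.4%). Of the 37 without one, among them the Mir9 copies, 5 were detected (13.5%). The part of this in the class medians was not tested. A mature form carried by exactly 3 genes was found in 19 genes. The 2 detected among them (10.5%, below the 18.4% of all genes) were Mir9-1 and Mir9-3. The Mir124a copies had no entry in the reference table, so they are in none of these classes. These classes rest on sequence and were set after the counts were known, so they describe the genes and carry no test.

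Single-position microRNA genes annotated in the same host genes as Mir124a-1 and Mir9-1 had counts too. They were chosen after their values were seen, as the other microRNA genes within 3000 bases. Mir3078 lies 443 bases from Mir124a-1 in Mir124a-1hg, and all of its 22-base windows were single-position. With 127 counts in replicate 1 and 93 in replicate 2 it stood at 14.1 and 4.89 times the counts of Mir124a-1. Mir3093 lies 340 bases from Mir9-1 in Gm3764, again with every window single-position, and had 270 and 122 counts, 6.14 and 1.45 times those of Mir9-1. Between the libraries Mir3093 was lower in replicate 2 (log2 ratio -0.78; adjusted p = 1.06e-06, exact binomial test) while its neighbour Mir9-1 was higher there. Mir3078 did not pass the test (log2 ratio -0.08; adjusted p = 0.765, exact binomial test).

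Strand mattered for Mir9-1 alone among the copies. The microRNA gene Gm25641 lies across it on the minus strand, at chr3:88215589-88215696, and the mature forms annotated there are named miR-9b. On its own strand Gm25641 had 0 counts in both libraries, and on the opposite strand, that of Mir9-1, it had 44 and 86. Mir9-1 itself had 44 and 84. In the column that ignores strand Mir9-1 was at 0 in both libraries, and the other copies had the same counts there. The row for ambiguous reads, outside the genes, held 282884 and 218334 reads in that column and 0 in both libraries in the column used here. Whether the reads of Mir9-1 are among them was not tested. None of the 6 copies had a count on the strand opposite to its own.

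The neuron-associated list, all of whose genes were detected, gives the scale of these counts. Of the 19 genes, 17 had a higher mean CPM than Mir9-3, the highest of the copies, and 2 had a lower one, Mir218-1 at 9.95 ± 5.2 CPM and Mir218-2 at 83.9 ± 12.7 CPM (SD, n = 2 each). The median of the list was 1016 CPM. Mir139 led it at 92324 ± 13062 CPM. Mir132, induced by neuronal activity, stood at 16177 ± 5583 CPM. Mir137, linked to synaptic function, stood at 9846 ± 908 CPM, and all 22-base windows of these 3 genes were single-position. The same held for Mir7b (3092 CPM), Mir134 (916 CPM), Mir212 (554 CPM) and Mir153 (231 CPM) of the list. The remaining genes of the list above Mir9-3 had shares from 90.4% (Mir129-1, 327 CPM) to 96.6% (Mir7-1, 106 CPM). Among them Mir128-1, at 14152 CPM, had 95.9%. Mir218-1 and Mir218-2, both below Mir9-3, had 98.9% single-position windows each, and a link between these shares and the counts was not tested. Nearest in level to the summed Mir9 copies over the 2 libraries were Mir495 (summed absolute difference of log2(CPM + 1) 0.32), Mir449a (0.33) and Mir30b (0.36). Nearest to the summed Mir124a copies were Mir7240 (0.19), Mir6915 (0.24) and Mir7224 (0.24).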

How the data were processed

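The deposited files hold raw counts of reads per microRNA gene in 2 libraries, with no normalization by the authors, as 3 counts per gene (strand ignored, strand of the gene, opposite strand) after 4 rows for reads outside genes. The deposited descriptions name mm10 and GENCODE M21; aligner, counter and options: not given in the sources used here. All 2202 gene IDs matched M21. Same-strand counts were used, and CPM are relative to their sum over genes; rows outside genes were left out. Detected means at least 10 counts in each library. Each detected gene's split between libraries was set against the split of totals (two-sided exact binomial test, Benjamini-Hochberg, 0.05; scipy 1.17.1). TMM (edgeR 4.0.16) and DESeq2 1.42.0 size factors were alternatives. The genome was not used here, so windows of 18 to 30 bases were searched in M21 transcripts; places in several transcripts count once. RefSeq mature forms matched 3 of the 6 genes. Tests were checked on simulated data. The genes, lists and tests were chosen with earlier results of these data known. Genes named by rule are the 6 copies, the Mir128 and Mir138 pairs, the cell type lists, an overlapping gene, carriers of the same seed, detected genes with a 3-copy mature form, and the 3 genes nearest each family in level; others are said to be chosen later.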

Additional observations from a re-analysis of the deposited data

Results flagged for a closer look

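Reads that matched several genomic positions lie outside the gene counts, at 39.1% of all reads in replicate 1 and 41.4% in replicate 2. These reads are listed because no gene row includes them and because the mature forms of Mir9 match 3 positions each. Whether any of them came from Mir9 or Mir124a is not known. Their sequences were not analysed here.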

How the results depend on the processing

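The test between the libraries called 236 genes, and 211 to 251 under the 6 alternatives. Both detected copies kept direction and call wherever they were tested, and with a minimum of 1 count 4 of the 6 copies passed, against 251 of 642 genes (39.1%). In a tally that did not cover every value under alternatives, 36 stayed within their tolerance or call and 9 moved. With all reads as the total the Mir124a share of the counts fell to 0.000269% and the Mir9 share to 0.00441%, against 0.000738 and 0.0121%; without the leading copy they were 0.000331 and 0.00201%. Without either replicate the shares ranged from 0.000535 to 0.00094% and from 0.00973 to 0.0144%, and 3 copies were detected in each single library. Detected copies numbered 6 with a minimum of 1, 1 with a minimum of 50 and 1 with strand ignored. Pooled over the copies, 68.0% of windows were single-position at 22 bases, 57.9% at 18 and 84.6% at 28. With microRNA genes alone as the search space, 68.0% and the median shortest read of 27 bases were unchanged. A search of the whole genome was not run. With strand ignored Mir9-1 has no ratio. No paired analysis was possible because there was 1 group. Counts of 1 to 19 limit what can be said of Mir124a and Mir9-2.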

Other observations

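Several genes for which every mature form in the table is shared with another gene had many counts. Mir129-1, whose 1 mature form in the table is shared with Mir129-2 and needs 4 extra bases, had 1177 counts in replicate 1 and 1173 in replicate 2. Mirlet7c-2, a let-7 gene whose 2 mature forms in the table are both shared and need at least 2 extra bases, had 7244 and 6202. Mir219a-2, associated with oligodendrocytes, has 1 mature form in the table, shared with Mir219a-1. It needs 1 extra base and had 6667 and 4594. With Mir9-1 and Mir9-3 these, chosen after their values were seen, were the 5 detected genes (13.5%) among the 37 for which every mature form in the table was shared. Of the 57 genes with another mature form that was not shared 39 were detected (68.4%), against 18.4% of all 2202 genes. The arms of a hairpin are not separated in the files, so the arm behind a count is not known.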
